A study of Drosophila melanogaster and Drosophila simulans and Drosophila yakuba with 8 samples.

Results

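The genes described here shape mitochondria in the fruit fly testis: the mitofusins fzo and Marf, the inner-membrane fusion GTPase Opa1, the fission GTPase Drp1, and Pink1 and park of mitochondrial quality control. The rule that picks them is by name, as 6 current FlyBase symbols matched to the gene identifiers of the deposited tables, and has no threshold on a measured value. Of the 6, 5 matched one of the 15178 genes listed for Drosophila melanogaster, and Opa1 was not analysed here because its current identifier (FBgn0261276) had no match among them. All 5 passed the filter on low levels, a mean of at least 1 RPKM (reads per kilobase of exon, scaled to the mapped reads of the library) over the 6 libraries.

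Messenger RNA from dissected testes of adults aged 1 to 7 days was sequenced in 6 D. melanogaster libraries, all labelled with the strain Oregon-R. The groups were wildtype (2 libraries), nosGal4>>UAS-Zeus-RNAi (2 libraries) and nosGal4>>UAS-Caf40-RNAi (2 libraries). The nosGal4 driver is active in germ cells, not in the somatic cells of the testis, and both knockdown genotypes carry a driver and a construct that wildtype flies lack. A driver-only control was not analysed here, nor were the single libraries of D. simulans and D. yakuba. Caf40 (Rcd-1 in the current annotation) belongs to the CCR4-NOT complex, which removes poly(A) tails from messenger RNAs, and Zeus (Rcd-1r) is its retrotransposed copy. Whether the libraries of a group were prepared from different flies is not stated, so p-values reflect the spread between these libraries, which may be technical.

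Mitochondria divide and fuse continually. Fusion of the outer membrane needs a mitofusin, fusion of the inner membrane needs Opa1, and division needs Drp1, a dynamin-related GTPase recruited to the outer membrane. In fly spermatids, just after meiosis, all mitochondria of a cell gather and fuse into a pair of giant derivatives, the nebenkern, which later lines the growing sperm tail. This fusion requires fzo, the first mitofusin described and a testis gene, while Marf is its general paralog, which was measured in these testes too. The kinase Pink1 marks damaged mitochondria and activates the ubiquitin ligase parkin, the product of park, and male flies lacking either gene are sterile, with defective sperm mitochondria.

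Libraries held between 12662615 and 24429722 reads assigned to genes, and the lowest count of any of the 5 genes in a library was 269 reads, for park. The targeted genes followed their labels: Rcd-1r measured 22.2 and 26.4 RPKM in wildtype and 4.05 and 4.04 RPKM in the Zeus knockdown, and Rcd-1 98.2 and 95.1 RPKM in wildtype and 25.7 and 23.3 RPKM in the Caf40 knockdown. In the Caf40 knockdown Rcd-1r stood at 134.5 and 113.8 RPKM. Fold changes were fitted with edgeR's quasi-likelihood test over 10223 genes and called at a Benjamini-Hochberg adjusted p under 0.05. In this test 36.8% of genes were called in the Zeus knockdown against wildtype, 80.5% in the Caf40 knockdown against wildtype, and 83.5% between the knockdowns. The balance of rises and falls moved with the scaling of the libraries. Rises made up 45.6% of the Zeus calls and 52.0% of the Caf40 calls with the TMM scaling used here, 21.9% and 61.1% with scaling by library total, and 65.0% and 39.8% with libraries set to the same median RPKM. Between the knockdowns, 48.1%, 36.5% and 61.2% of the calls under these scalings were higher in the Zeus knockdown. Against TMM, library totals moved the median log2 fold change of all genes by -0.16 for Zeus, 0.22 for Caf40 and -0.38 for Zeus minus Caf40, and equal medians by 0.10, -0.30 and 0.40.

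In wildtype testis all 5 genes were well expressed, and fzo was the more abundant of the mitofusins. The level of fzo was 119.1 ± 14.1 RPKM (SD, n = 2), above 92.1% of listed genes, and that of Drp1 was 111 ± 4.18 RPKM. These leading genes overlapped between libraries, with 129 and 109.1 RPKM for fzo and 108 and 114 RPKM for Drp1. Pink1 followed at 71.1 ± 1.20 RPKM. Marf, at 36.96 ± 1.61 RPKM, and park, at 35.3 ± 0.712 RPKM, closed the order, and the lower Marf library and the higher park library both read 35.8 RPKM. RPKM is scaled by gene length, which allows a rough comparison between genes. Strand use in counting is not given, so reads of opposite-strand genes that overlap Marf, Drp1, Pink1 and park may add to these levels.

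The order of the genes differed in the knockdowns. Drp1 led in the Zeus knockdown at 114.7 ± 0.807 RPKM, above fzo at 90.1 ± 2.45 RPKM, Pink1 at 82.2 ± 0.930 RPKM, park at 40.2 ± 0.396 RPKM and Marf at 37.1 ± 0.349 RPKM, with no overlap between neighbours. In the Caf40 knockdown Drp1 (119.3 ± 1.06 RPKM) and Pink1 (73.9 ± 0.501 RPKM) came first. Marf (39.7 ± 2.35 RPKM) and fzo (36.7 ± 3.60 RPKM) followed with overlapping libraries, and park was lowest at 12.6 ± 0.654 RPKM, above 58.5% of listed genes.

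**Figure D1:**
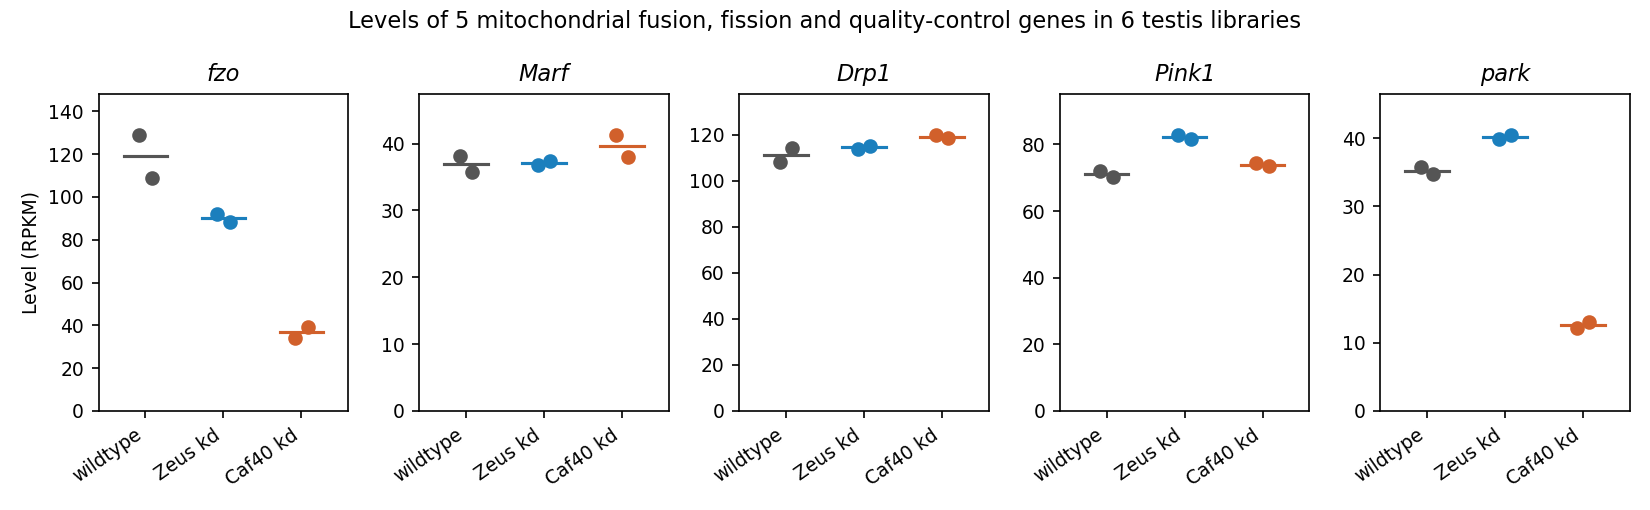
Level of each gene in RPKM (vertical axis, from 0, with its own range per panel) in wildtype, Zeus knockdown (Zeus kd) and Caf40 knockdown (Caf40 kd) testis; each point is 1 library and each bar the mean of 2. In the Caf40 knockdown fzo was at 34.1 and 39.2 RPKM and park at 12.1 and 13.0 RPKM, below every library of the other groups, while Marf, Drp1 and Pink1 stayed within a narrow range.

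The knockdown of Caf40 went with much less fzo and park RNA, and the other 3 genes did not pass the test. Thus fzo fell while its general paralog Marf did not pass, and park fell while Pink1, the gene of parkin's activating kinase, did not pass. Of the 5 genes, 0 rose and 2 fell, beside 41.9% of all tested genes that rose and 38.6% that fell. The median log2 fold change of the 5 genes was -0.17, and that of all genes was 0.06. Their median size of change was 0.17, against 0.78 over all tested genes.

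The mitofusin of spermatids, fzo (FBgn0011596, on chromosome arm 3R in the reference annotation), measured 129 and 109.1 RPKM in wildtype and 34.1 and 39.2 RPKM in the Caf40 knockdown. The groups stood far apart, and the fit put fzo 3.79-fold lower in the knockdown (log2 -1.92 with SE 0.12, edgeR adjusted p = 2.86e-09). Its size exceeded that of 91.4% of tested genes. Over the alternatives tried, the log2 fold change ranged from -2.22 to -1.67 and every adjusted p passed, the highest being 4.39e-07. The annotation gives fzo no intron, so the absence of exon-junction reads among its 24296 reads in the 6 libraries sets no limit on splicing. The span of cnc, a gene on the same strand that was not analysed here, overlaps fzo without shared exon bases. Reads of unspliced cnc RNA at this place cannot be told apart from fzo reads.

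Marf (FBgn0029870, on X), the general paralog of fzo, measured 38.1 and 35.8 RPKM in wildtype and 41.3 and 38.0 RPKM in the Caf40 knockdown. These values overlapped, and the fitted log2 fold change was -0.13 (SE 0.09, adjusted p = 0.198). Drp1 (FBgn0026479, on 2L), which constricts and divides mitochondria, measured 108 and 114 RPKM in wildtype and 120.04 and 119 RPKM in the knockdown (log2 -0.13 with SE 0.10, adjusted p = 0.225). The deposited levels of both genes were a little higher in the knockdown and the fitted values a little lower, because the TMM factors of the Caf40 libraries (1.19 and 1.11) exceeded those of wildtype (0.980 and 0.992). With scaling by library total the log2 fold changes became 0.09 for Marf and 0.09 for Drp1, and with equal medians -0.43 for each, past the threshold, so neither direction nor call was independent of the scaling. Without Caf40 knockdown replicate 1 Marf passed as a fall (-0.15, adjusted p = 0.0455), and without replicate 2 Drp1 did (-0.17, adjusted p = 0.00870).

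Pink1 (FBgn0029891, on X), the kinase upstream of parkin, measured 72.0 and 70.3 RPKM in wildtype and 74.3 and 73.6 RPKM in the Caf40 knockdown. The groups lay close together without overlapping, and the fitted value did not pass (log2 fold change -0.17, SE 0.09, adjusted p = 0.101). It passed as a fall with DESeq2 (-0.24, adjusted p = 0.0321), with equal medians (-0.47) and without Caf40 knockdown replicate 1 or 2 (-0.14 and -0.21), and was positive, at 0.05, with library totals.

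The ubiquitin ligase gene park (FBgn0041100, on 3L) measured 35.8 and 34.8 RPKM in wildtype and 12.1 and 13.0 RPKM in the Caf40 knockdown. Each knockdown library was far below each wildtype library, or 3.28-fold lower in the fit (log2 -1.71 with SE 0.10, adjusted p = 1.03e-09). Alternatives gave values from -2.01 to -1.42, and every one passed. An antisense RNA gene of the current annotation, asRNA:CR45951, covers 63.8% of the exon bases of park on the opposite strand and was not analysed here. Neither the labels nor the file headers say that counting used the strand, so reads of the sense and antisense transcripts cannot be told apart. Targ3, a neighbour on the opposite strand that shares 23 exon bases with park, measured 22.2 and 20.4 RPKM in wildtype and 16.9 and 17.4 RPKM in the Caf40 knockdown (log2 fold change -0.54).

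Ratios within a library, in which library scaling cancels, gave the same picture. The fzo to Marf ratio was 3.39 and 3.04 in wildtype and 0.826 and 1.03 in the Caf40 knockdown. The level of fzo thus went from well above that of its paralog to about the same level, 3.48-fold lower as a ratio, a log2 difference of -1.80. With 2 libraries against 2, the two-sided exact permutation test gave p = 0.333, the smallest that this design allows. The park to Pink1 ratio was 0.497 and 0.495 in wildtype and 0.163 and 0.177 in the Caf40 knockdown, a log2 difference of -1.55. By contrast, the Drp1 to Marf ratio was 2.84 and 3.19 in wildtype and 2.91 and 3.12 in the knockdown, fully overlapping. The fzo to park ratio, at 3.61 and 3.14 in wildtype and 2.82 and 3.01 in the knockdown, showed that both genes were lower by similar factors.

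**Figure D2:**
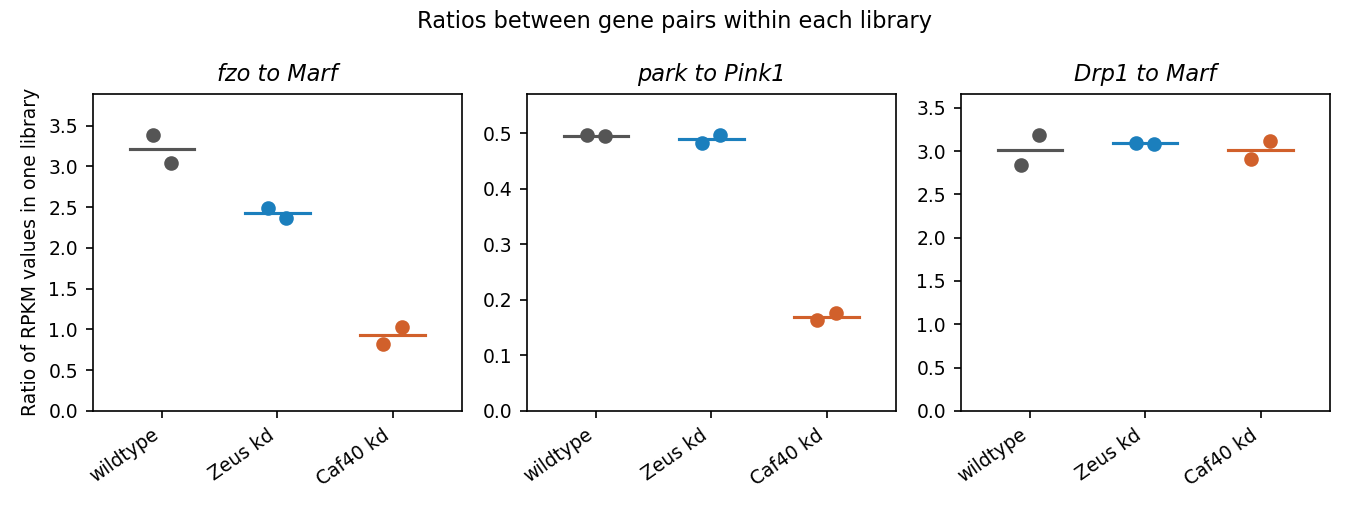
Ratio of the RPKM values of 2 genes within 1 library (vertical axis, from 0) for fzo to Marf, park to Pink1 and Drp1 to Marf; each point is 1 library and each bar the mean of 2. The fzo to Marf (0.826 and 1.03) and park to Pink1 (0.163 and 0.177) ratios were lowest in the Caf40 knockdown, while Drp1 to Marf lay between 2.84 and 3.19 in all 6 libraries.

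In the Zeus knockdown Pink1 and park rose modestly, and fzo was lower without passing the main test. Of the 5 genes, 2 rose and 0 fell, beside 16.8% of all tested genes that rose and 20.0% that fell. The median log2 fold change of the 5 genes was 0.19, and that of all genes was -0.04. Their median size of change was 0.25, against 0.26 over all tested genes. Each of these calls depended on single libraries or on the scaling.

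Levels of fzo in the Zeus knockdown were 91.9 and 88.4 RPKM, below both wildtype libraries (129 and 109.1 RPKM). The fitted log2 fold change was -0.25 (SE 0.12, edgeR adjusted p = 0.0993, unadjusted 0.0454). It passed with scaling by library total (-0.41, adjusted p = 0.00199), with upper-quartile scaling (-0.29, adjusted p = 0.0376), with limma on log2(RPKM + 1) (-0.39, adjusted p = 0.0121), with only the groups compared in the fit (-0.25, adjusted p = 0.00289), and without Caf40 knockdown replicate 1 or 2 (adjusted p = 0.00376 and 0.00369). It did not pass with DESeq2 (-0.24, adjusted p = 0.170) or with equal medians (-0.15, adjusted p = 0.363). Nor did it pass with a replicate block, with other filters on low values or with reads on the genome only. Without wildtype replicate 1 or 2 (-0.12 and -0.37) or Zeus knockdown replicate 1 or 2 (-0.28 and -0.22) it did not pass either. Over all alternatives the value stayed negative, between -0.41 and -0.12. The value nearest to no change, -0.12, came from the fit without wildtype replicate 1, the library with the highest fzo level. The fzo to Marf ratio was 2.49 and 2.37 in the Zeus knockdown, below 3.39 and 3.04 in wildtype, a log2 difference of -0.40 (exact permutation p = 0.333).

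Marf measured 36.9 and 37.3 RPKM and Drp1 114.1 and 115 RPKM in the Zeus knockdown, both overlapping wildtype. Their log2 fold changes were 0.15 (SE 0.09, adjusted p = 0.199) and 0.19 (SE 0.10, adjusted p = 0.126). With library totals they were -0.0066 and 0.03, and both passed as rises with equal medians (0.26 and 0.30), with only the groups compared in the fit, and without Caf40 knockdown replicate 1 or 2.

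Pink1 measured 82.9 and 81.6 RPKM in the Zeus knockdown, above 72.0 and 70.3 RPKM in wildtype (log2 0.36 with SE 0.09, adjusted p = 0.00900). The call was lost with library totals (0.20, adjusted p = 0.0531) and without any of 4 libraries: wildtype replicate 1 or 2 (adjusted p = 0.0670 and 0.102) and Zeus knockdown replicate 1 or 2 (0.107 and 0.0984). The level of park was 40.0 and 40.5 RPKM, above 35.8 and 34.8 RPKM in wildtype (log2 0.34 with SE 0.09, adjusted p = 0.00865). Its call was lost with library totals (0.18, adjusted p = 0.137), with limma on log2(RPKM + 1) (0.18, adjusted p = 0.105), without wildtype replicate 2 (0.0854), and without Zeus knockdown replicate 1 or 2 (0.0532 and 0.0863). The park to Pink1 ratio was 0.482 and 0.497 in the Zeus knockdown, overlapping the 0.497 and 0.495 of wildtype.

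Set directly against each other, the knockdowns differed at fzo and park by a wide margin. Of the 5 genes, 5 were higher and 0 lower in the Zeus knockdown, beside 40.2% of all tested genes that were higher and 43.3% that were lower. For fzo the log2 difference, Zeus minus Caf40, was 1.67 (SE 0.12, adjusted p = 9.86e-09), a 3.18-fold higher level, and for park it was 2.05 (SE 0.10, adjusted p = 2.05e-10), a 4.14-fold higher level. The value of park exceeded in size that of 91.4% of tested genes. Both passed in every alternative, within 1.28 to 2.08 for fzo and 1.61 to 2.45 for park. Pink1 (0.53, SE 0.09), Drp1 (0.32, SE 0.10) and Marf (0.28, SE 0.09) also passed, with adjusted p = 9.18e-05, 0.00602 and 0.00985. With library totals these 3 values were 0.15, -0.06 and -0.10 and none passed, so the order of the knockdowns for Drp1 and Marf turned with the scaling. Without Zeus knockdown replicate 1 or 2, Drp1 (adjusted p = 0.0619 and 0.0742) and Marf (0.0689 and 0.0890) lost their calls, and Marf also with only the groups compared in the fit (adjusted p = 0.0665). Both comparisons with wildtype share the same wildtype libraries.

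**Figure D3:**
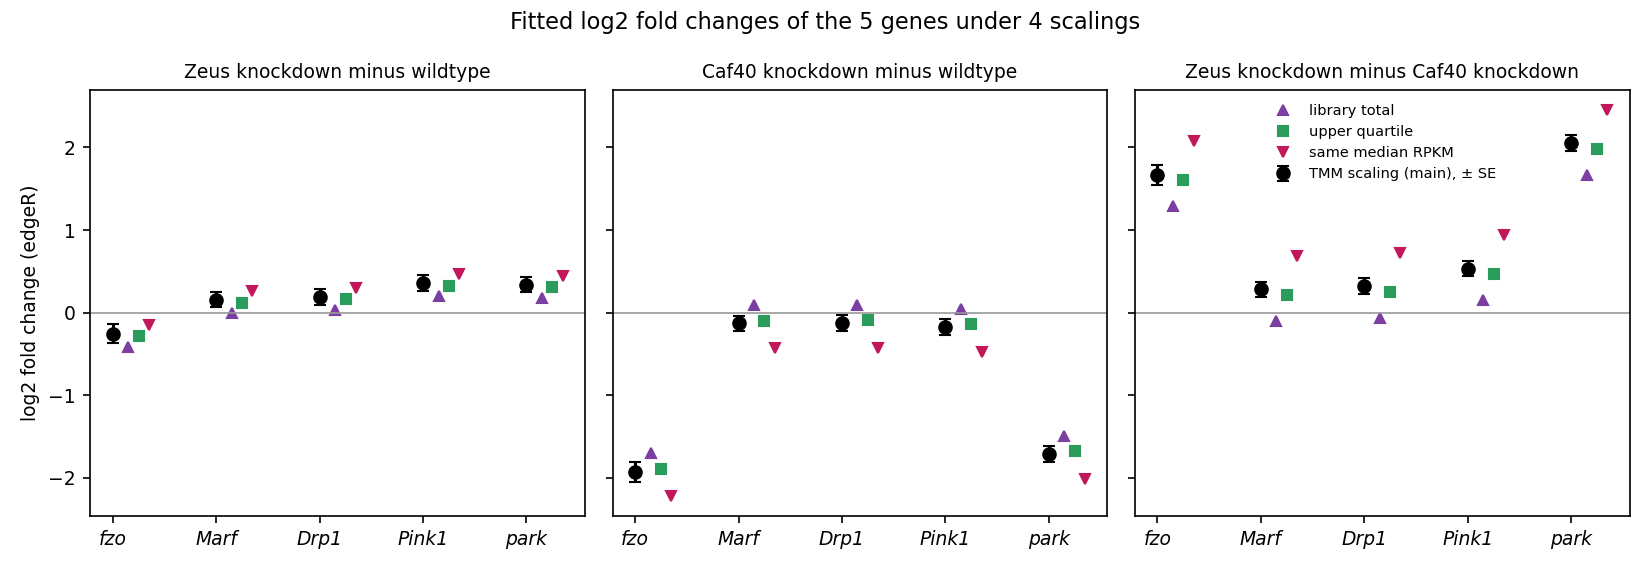
Fitted log2 fold change (vertical axis) of each gene in the 3 comparisons; black points are the TMM-scaled fit with its standard error, and coloured symbols the same fit with the other scalings. Only fzo and park, in the comparisons that involve the Caf40 knockdown, lie far from 0 under all 4 scalings, at -1.92 and -1.71 against wildtype with TMM, while in those comparisons Marf and Drp1 lie on both sides of 0.

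Marker lists describe what the libraries held. Their counts stand beside 41.9% of all tested genes that rose and 38.6% that fell in the Caf40 knockdown, and 16.8% and 20.0% in the Zeus knockdown. The stage at which each listed RNA is made was not measured here, so the spermatid and spermatocyte lists may not separate these cells. Mst87F, a sperm-tail protein gene of the spermatid list, averaged 2637 RPKM in wildtype. Of 10 spermatid markers, 0 rose and 6 fell in the Caf40 knockdown (median log2 fold change -0.40), and their summed level lay between 14594 and 15005 RPKM in wildtype and between 14148 and 15800 RPKM in the Caf40 knockdown. Of 7 primary spermatocyte markers, which include regulators of meiotic entry and spermatid gene transcription, 0 rose and 7 fell (median -1.04), with summed levels of 182 to 188 RPKM in wildtype and 93.2 to 97.7 RPKM in the knockdown. Of 4 spermatogonial markers analysed of 6 fixed, 3 rose and 1 fell (median 2.87), with summed levels of 65.1 to 65.8 RPKM in wildtype and 183 to 225 RPKM in the knockdown. bam, which ends spermatogonial divisions, averaged 3.32 RPKM in wildtype and 36.6 RPKM in the knockdown. bgcn, the 1 that fell, averaged 46.1 RPKM in wildtype, most of the summed level there, and 34.1 RPKM in the knockdown (log2 fold change -0.67).

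In the Zeus knockdown the spermatid list had 6 rises and 0 falls (median 0.41, summed level 18130 to 18303 RPKM), the spermatocyte list 0 rises and 2 falls (median -0.24, 124 to 136 RPKM) and the spermatogonial list 0 rises and 4 falls (median -0.58, 38.6 to 38.8 RPKM). With any 1 of the wildtype or Zeus libraries left out, 1 spermatid marker rose. Cyst and hub cell markers summed to 45.6 to 47.6 RPKM in wildtype, 48.3 RPKM in both Zeus libraries and 53.9 to 54.5 RPKM in the Caf40 knockdown, with 2 rises and 0 falls of 7 in the Zeus and 3 and 3 in the Caf40 knockdown. Muscle sheath markers summed to 30.7 to 30.8, 35.2 to 46.1 and 48.2 to 69.8 RPKM, with 3 rises and 0 falls of 5 in each knockdown. Accessory gland genes were low throughout, from 2.54 to 15.8 RPKM in sum, with 2 rises and 1 fall of 4 tested in the Zeus and 0 and 2 in the Caf40 knockdown. No marker analysed was at 0 reads in all 6 libraries. Summed levels use deposited RPKM values and leave out the TMM factors of the fit, so differences between sums depend on the scaling. These factors were 0.980 and 0.992 in wildtype, 0.881 and 0.882 in the Zeus and 1.19 and 1.11 in the Caf40 libraries. The part of these marker changes in the values of fzo and park was not tested, and in bulk RNA fewer cells of a type and less RNA per cell cannot be told apart.

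**Figure D4:**
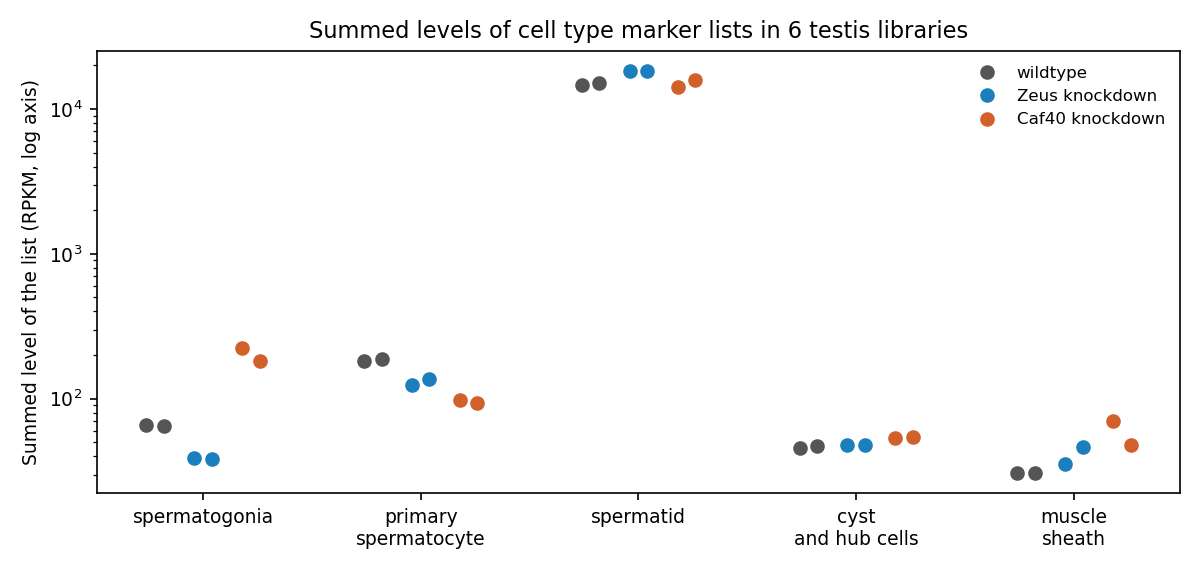
Summed level of 5 marker lists in deposited RPKM, without TMM factors (vertical axis, logarithmic), in the 6 libraries, coloured by group. Each point is 1 library. Spermatogonial markers summed to 183 and 225 RPKM in the Caf40 knockdown against 65.1 and 65.8 RPKM in wildtype, while the spermatocyte sum was highest in wildtype.

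The lists of related genes are read against the same shares of all tested genes, 41.9% rising and 38.6% falling in the Caf40 and 16.8% and 20.0% in the Zeus knockdown. Genes that work with the fusion and fission machinery changed in both directions in the Caf40 knockdown, as did all tested genes. Of 13 partners of mitochondrial dynamics analysed of 20 listed, 3 rose and 7 fell (median log2 fold change -0.24). Falls included Slc25A46b, whose human counterpart is an outer-membrane protein of mitochondrial dynamics, from 158 ± 8.05 to 61.5 ± 8.11 RPKM (SD, n = 2; log2 fold change -1.58, adjusted p = 1.48e-08). Mul1, an outer-membrane ubiquitin ligase that acts on Marf in flies, fell from 131 ± 6.85 to 65.8 ± 9.34 RPKM (-1.22), and Pgam5-2, of the Pgam5 phosphatase family, from 25.9 to 15.8 RPKM (-0.94). Khc, the kinesin heavy chain that moves mitochondria along microtubules, rose from 16.01 ± 0.134 to 39.1 ± 3.72 RPKM (1.05). With equal medians 1 rose and 10 fell, and with library totals 3 rose and 5 fell (median -0.02).

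The Zeus knockdown had 3 rises and 2 falls among these 13 partners, beside 16.8% and 20.0% of all tested genes (median 0.08, and -0.08 with library totals). Pgam5-2 rose to 32.4 RPKM (0.48) and rho-7, a rhomboid protease of the inner membrane, from 85.2 to 97.1 RPKM (0.34). Khc fell to 10.8 RPKM (-0.42) and Slc25A46a from 14.1 to 9.83 RPKM (-0.36). Without any 1 of the wildtype or Zeus libraries at most 1 of the partners rose and at most 1 fell. Without Caf40 knockdown replicate 1 or 2, by contrast, 6 rose and 4 fell, and the same held for the lists that follow, with 7 rises and 4 falls in mitophagy, 7 and 1 in the inner membrane and 9 and 1 among the testis copies.

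The mitophagy and Pink1/parkin list had calls in both directions in the Caf40 knockdown, near the balance of all tested genes. Of 18 genes analysed of 22 listed, 9 rose and 7 fell, beside 41.9% and 38.6% of all tested genes (median 0.27, and -0.03 with equal medians, where 7 rose and 9 fell). Rises included dj-1beta, of the oxidative stress response, from 17.5 ± 1.07 to 76.0 ± 9.65 RPKM (log2 fold change 1.88, SE 0.11, adjusted p = 1.01e-09). Atg9, the membrane protein of the autophagosome, rose from 2.37 to 9.82 RPKM (1.82), Atg17, a scaffold of the Atg1 kinase complex, from 5.97 to 22.3 RPKM (1.66), and BNIP3, a mitophagy receptor, from 15.4 to 46.3 RPKM (1.35). The Zeus knockdown had 4 rises and 0 falls (median 0.06, and -0.10 with library totals, where 1 rose and 7 fell). They were dj-1beta, to 33.2 RPKM (1.08), nutcracker (ntc), an F-box gene needed for sperm individualization, from 244 to 286 RPKM (0.38), DJ-1alpha from 32.2 to 38.0 RPKM (0.39), and Atg18a, a phosphoinositide-binding autophagy protein, from 7.16 to 8.03 RPKM (0.32). Without any 1 of the wildtype or Zeus libraries, 1 or 2 of these genes rose.

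Genes of inner-membrane shape, the compartment in which Opa1 works, held 2 rises and 4 falls among 9 analysed of 12 listed in the Caf40 knockdown, beside 41.9% and 38.6% of all tested genes (median -0.21, and 0.01 with library totals). Without single libraries 1 or 2 rose and between 2 and 7 fell. Chchd3, a subunit of the cristae-organizing MICOS complex, rose from 15.2 to 50.5 RPKM (1.49) and QIL1, another subunit, from 33.1 to 48.5 RPKM (0.31). Mitofilin, the core MICOS subunit, fell from 130.2 to 99.6 RPKM (-0.61) and CLS, the cardiolipin synthase, from 79.2 to 57.0 RPKM (-0.70). The Zeus knockdown had 5 rises and 1 fall (median 0.29), with among the rises the protease genes Spg7 (0.39) and Afg3l2 (0.36), and Mic26-27 (0.46) and Mitofilin (0.32). Without any 1 of the wildtype or Zeus libraries, between 0 and 2 rose.

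Testis copies of mitochondrial genes fell together in the Caf40 knockdown. Of 16 analysed of 19 listed, 0 rose and 16 fell, beside 41.9% and 38.6% of all tested genes, with a median log2 fold change of -1.06, and 16 fell under each alternative. Among them, Tim17a1, a copy of an inner-membrane import channel gene, fell from 122 to 40.6 RPKM (-1.80), and Tim17b1 from 84.6 to 36.3 RPKM (-1.44). The ATP synthase subunit copies ATPsynGL and ATPsynCF6L fell from 196 to 64.8 RPKM (-1.80) and from 169 to 61.7 RPKM (-1.67). The values of fzo (-1.92) and park (-1.71) thus lay near the strongest falls of this list, whose smallest was that of Porin2 (-0.68). In the Zeus knockdown 3 rose and 0 fell (median 0.16, and 0.00 with library totals). These were the cytochrome c copy Cyt-c-d from 733 to 839 RPKM (0.34), COX7AL (0.34) and COX6AL (0.30), while Porin2 did not pass (0.31, adjusted p = 0.0522). None of the 16 passed as a rise without any 1 of the wildtype or Zeus libraries.

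**Figure D5:**
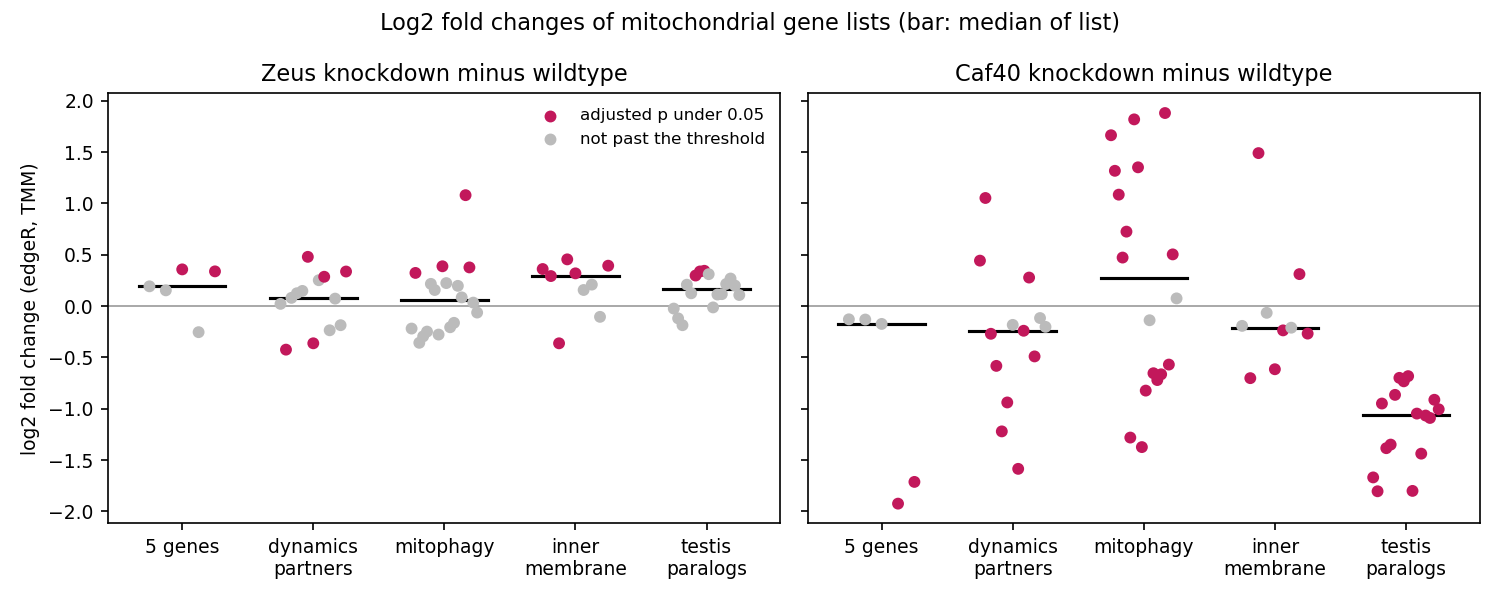
Log2 fold change (vertical axis) of each tested gene in 5 lists, in the Zeus (left) and Caf40 (right) knockdown against wildtype; points are genes, coloured where the adjusted p was under 0.05, and bars are list medians. All 16 testis copies lie below 0 in the Caf40 knockdown, with a median of -1.06, beside fzo and park in the first column.

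The genes most like each of the 5 in pattern were found by the Euclidean distance of log2(RPKM + 1) values, centred on wildtype, over the 6 libraries and among 8965 other named genes. Nearest to fzo was Arp53D, a testis actin-related protein gene, at 206 and 185 RPKM in wildtype, 152 and 154 RPKM in the Zeus and 55.2 and 65.0 RPKM in the Caf40 knockdown (distance 0.104), followed by CG11726 (0.147). CG13229 (0.143) and otp, a homeobox gene (0.156), came nearest to park. The steadier genes had closer and far more numerous neighbours. Marf was nearest to CG31109 and CG4101, Drp1 to AdipoR, the adiponectin receptor gene, and Prosalpha7, a proteasome subunit gene, and Pink1 to the ubiquitin-conjugating enzyme gene Ubc2 and to Afg3l2. Within a distance of 0.3 there were 40 genes for fzo and 26 for park, against 309 for Marf, 312 for Drp1 and 302 for Pink1. These distances describe 6 libraries in 3 groups and carry no test.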

How the data were processed

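Messenger RNA of testis was measured in 6 D. melanogaster libraries. Reads were aligned with Bowtie to the dm3 build, per the submitters' processing notes. Its version, the annotation release, the strand setting and the handling of multiply aligned reads are not given in these labels. The authors deposited, per the file headers, counts of reads per gene, the sum of reads on the genome and on exon junctions. They also deposited an RPKM value, which equalled reads per kilobase of listed exon length, scaled to the total of mapped reads. Symbols, chromosome arms and overlaps came from the BDGP6 annotation, which gave a symbol to 84.7% of identifiers; no coordinates are printed because the builds differ.

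Read counts were fitted for the 10223 genes whose RPKM averaged 1 or more with edgeR 4.0.16 in R 4.3.3, with TMM scaling, 1 coefficient per group, no block, a quasi-likelihood test (two-sided) and Benjamini-Hochberg adjustment at 0.05. All 3 groups of 2 libraries entered 1 fit, with a biological coefficient of variation of 0.0747. The groups shared this estimate of the spread, so p-values for Zeus against wildtype also carry the spread of the Caf40 libraries. Fits without a Caf40 library took the spread from the wildtype and Zeus libraries only. Printed RPKM values are the authors' and log2 fold changes are fitted, so they differ by the TMM factors. Each standard error is the absolute log2 value divided by the root of F. The procedure was run on simulated counts in which a small part of the genes changed, in both directions and in the Zeus group only. That run cannot show how the TMM scaling performs where many genes change, as they did here. Replicates differed by more than counting error: over genes with 50 or more reads in the group, chi-square per degree of freedom was 5.58 in wildtype, 2.15 in the Zeus and 15.998 in the Caf40 knockdown.

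The rule for the genes used names only, but the genes and lists were proposed with earlier results of these data known. The genes named are the 5, the targets Rcd-1 and Rcd-1r, up to 4 genes with the smallest p per mitochondrial list and knockdown, and the 2 nearest in pattern. Others (Targ3, Mst87F, bam, bgcn, and the pairs among the other observations) were chosen after their values were seen. Alternatives were limma 3.58.1 with 1 or 0.1 RPKM added, DESeq2 1.42.0, other scalings and filters, a replicate block, reads on the genome only, fits of only 2 groups and fits without single libraries.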

Additional observations from a re-analysis of the deposited data

How the results depend on the processing

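The falls of fzo and park in the Caf40 knockdown, and their differences between knockdowns, kept direction and call in all 17 alternatives. The fzo to Marf difference kept its direction in each of 6 alternatives per comparison. The number of the 5 genes called was less stable. Against 2 in the Zeus knockdown, it was 1 with library totals (fzo, as a fall), 3 with upper-quartile scaling, 4 with equal medians (a scaling added after seeing the data) and 5 with only the groups compared. It was between 0 and 5 without single libraries. Against 2 in the Caf40 knockdown, it was 3 with DESeq2 and 5 with equal medians, and between 2 and 4 without single libraries. Against 5 between knockdowns, it was 2 with library totals and with either limma fit, and between 3 and 5 without single libraries. Of all genes tested, between 1625 and 5360 were called in the Zeus knockdown without single libraries, and 5350 with only the groups compared, against 3761.

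Some directions turned, among them those of Marf and Drp1 between the knockdowns, which the TMM-scaled fit had called at 0.28 and 0.32. In the Zeus knockdown, Marf was -0.0066 with library totals. In the Caf40 knockdown with library totals, Marf, Drp1 and Pink1 were 0.093, 0.094 and 0.049, with limma and 1 RPKM added 0.098, 0.10 and 0.056, and with 0.1 RPKM added 0.10, 0.10 and 0.056. Zeus minus Caf40, Marf and Drp1 were -0.10 and -0.062 with library totals, -0.092 and -0.057 with limma and 1 RPKM added, and -0.095 and -0.057 with 0.1 RPKM added. By construction, library totals and limma on RPKM omit the TMM factors; the cause was not otherwise tested.

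Replicate numbers did not pair the libraries (correlations of deviations -0.060, -0.020 and -0.0031). With a replicate block, 3615, 8169 and 8479 genes were called and 2, 2 and 5 of the 5 genes, so the block changed no call among them.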

Other observations

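Several mitochondrial or autophagy gene pairs were like fzo and Marf in their ratio, in that one copy fell relative to the other in the Caf40 knockdown. Unlike Marf, which did not pass, Atg8a, porin and dj-1beta rose. These pairs were picked after their values were seen, so they carry no test of the pattern, and ratios are of RPKM values within a library. The Atg8b to Atg8a ratio, of the testis and the general copy of the ubiquitin-like protein of autophagosomes, was 5.48 and 5.11 in wildtype and 1.10 and 1.54 in the Caf40 knockdown. Atg8b fell from 399 to 191 RPKM (log2 fold change -1.28, adjusted p = 2.12e-07 by edgeR) while Atg8a rose from 75.4 to 146 RPKM (0.73, adjusted p = 4.63e-06). The Porin2 to porin ratio, of outer-membrane channel genes, was 7.18 and 6.76 in wildtype and 2.66 and 3.47 in the Caf40 knockdown. There Porin2 fell (-0.68) and porin rose (0.50). The DJ-1alpha to dj-1beta ratio showed the largest shift of the 4 pairs, from 1.81 and 1.86 to 0.142 and 0.242. Here DJ-1alpha fell (-1.37) and dj-1beta rose (1.88). The Slc25A46b to Slc25A46a ratio went from 11.6 and 10.8 to 3.55 and 4.99.

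The same ratios went both ways in the Zeus knockdown, where that of fzo to Marf was below both wildtype libraries. Atg8b to Atg8a was 7.54 and 7.08, Porin2 to porin 8.44 and 8.45, and Slc25A46b to Slc25A46a 17.6 and 17.0, each above both wildtype libraries. The DJ-1alpha to dj-1beta ratio was 1.22 and 1.08, below both, as that of fzo to Marf was.

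Reads on exon junctions made up 5.68% of all Marf reads, 3.62% of Pink1 reads, 2.03% of park reads and 0.408% of Drp1 reads over the 6 libraries. For Pink1 the share lay between 3.39% and 3.84% in every library. The level of each gene was therefore set almost wholly by reads on the genome, and the fits on those reads alone gave the same calls for the 5 genes in the 3 comparisons.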
